A study of Oryza sativa Indica Group with 11 samples.

Results

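The salt response of the rice line IR29 was described from 5 of the 11 arrays of the study, chosen by their labels: 2 arrays of IR29 control plants and 3 arrays of salt-stressed IR29 plants. IR29 is a salt-sensitive indica cultivar. Each array held biotin-labelled RNA from crown and growing point tissue, pooled from about 12 plants of 1 sample. The sources used here state neither the salt dose and its duration nor the age of the plants. The other 6 arrays, 3 control and 3 salt arrays of the salt-tolerant line FL478, entered the fit as further groups, which share the estimate of the spread. Each control array is given separately below, because control replicate 1 stood apart from the other 4 IR29 arrays. The design calls the arrays biological replicates without saying whether the plants were grown apart, so p-values measure only the spread between these samples.

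In a rice plant under salt, sodium reaches the shoot with the xylem sap, and the shoot base, which holds the crown and the growing point, is where leaves, tillers and crown roots are formed. HKT1;5 takes sodium back out of the xylem sap. Plants under osmotic stress make abscisic acid (ABA), which acts through receptors, PP2C phosphatases, SnRK2 kinases and bZIP factors on dehydrin genes, and jasmonate acts through the removal of JAZ repressors by the proteasome. Cell division in the meristem and the building of xylem walls are the main growth processes of this tissue.

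Levels are given as log2 of the deposited signal intensity plus 16, after quantile normalization, and a change is the mean of the salt arrays minus the mean of the controls on that scale. A level between 4 and about 6 lies near the added value of 16, so changes that start there understate or depend on it. Meristem markers were present on every array: OSH1, a KNOX homeobox gene of the shoot meristem, had levels of 11.86 and 12.21 in the controls and 11.86, 12.15 and 11.65 in the salt arrays. The mean level of the 74 meristem genes ran from 9.04 to 9.13 over the 5 arrays. Root-preferred genes were not absent, with mean levels of 8.67 and 8.22 in the controls and 8.23, 7.85 and 8.56 under salt. Control replicate 1 correlated with control replicate 2 at 0.961 over all probe sets and with the salt arrays at 0.957 to 0.962, while the salt arrays correlated with each other at 0.968 to 0.973. A principal component analysis of the 5 arrays placed control replicate 1 at 115.5 and the other 4 between -45.8 and -12.1 on its leading axis, with 35.5% of the variance. For cyclophilin the 3'/5' signal ratio, a sign of RNA quality, was on the log2 scale 0.70 and 0.90 in the controls and 0.99 to 1.15 under salt, and that of actin was 0.72 and 0.70 against 0.88 to 0.98. The GAPDH ratio did not separate the conditions, with 0.57 and 0.28 in the controls and 0.41, 0.56 and 0.34 under salt. The cyclophilin and actin ratios move with the group differences given below, and their part in them was not tested.

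The genes that stood clear of both controls were mostly higher under salt. Every salt array lay at least 2-fold above both controls for 61 of 17905 genes (0.341%) and at least 2-fold below both for 5 (0.0279%), counting genes with a mean level of at least 7 in the brighter group. Without the 2-fold condition and the condition on the mean level the sides were even. Every salt array then lay above both controls for 2292 genes (12.8%) and below both for 2421 (13.5%). A change above 0 was found for 49.8% of all genes, and the median change was -0.001. The 61 genes had changes from 1.26 to 5.18, with a median of 1.92, and the 5 lower genes had changes of 1.48 to 2.46 in size. The brightest probe set stood for each gene, and with the mean of all its probe sets 57 of the 61 and all 5 lower genes met the same condition. The FL478 arrays entered the normalization and the choice of the brightest probe set, but not the 2-fold and level conditions. In FL478, 46 of the 61 had a change above 0, against 49.7% of all genes. For 11 of them every FL478 salt array lay above every FL478 control, against 5.26% of all genes.

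**Figure D1:**
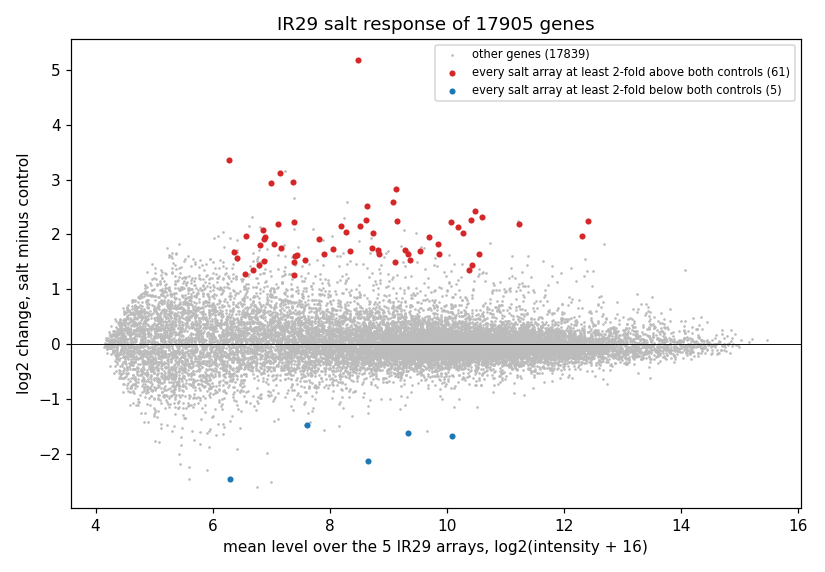
Each point is 1 of 17905 genes, with its mean level over the 5 IR29 arrays on the x axis (log2 of intensity plus 16) and its log2 change, salt minus control, on the y axis. The 61 red genes and the 5 blue genes are those in which every salt array lay at least 2-fold above or below both controls, and the red ones outnumber the blue ones.

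Limma called 3 of 57258 probe sets at an adjusted p under 0.05 (0.00524%), all higher, and 2 of the 17905 genes (0.0112%). At an unadjusted p under 0.05 it found 3.6% of probe sets higher and 3.77% lower, 4220 in all. In FL478 it called 5 probe sets (0.00873%). LOC4349605 had levels of 9.02 and 9.10 in the controls and 11.72, 11.33 and 10.89 under salt. Both controls were nearly equal and all salt arrays lay far above them, and the gene rose 4.78-fold (log2 change 2.26 ± 0.24, SE, n = 3 and 2, adjusted p = 0.0252 by limma). In FL478 it had a change of -0.37 ± 0.22, and the difference between the lines of 2.63 ± 0.33 was not called (adjusted p = 0.219 by limma). LOC4339527 had levels of 9.50 and 9.62 in the controls and 11.34, 11.18 and 11.12 under salt, and rose 3.14-fold (1.65 ± 0.20, adjusted p = 0.0451 by limma). Another probe set, to which the annotation assigns no gene, had 7.16 and 7.74 against 10.37, 10.89 and 10.59, and rose 8.97-fold (3.17 ± 0.32, adjusted p = 0.0252 by limma). In FL478 LOC4339527 had a change of 1.66 ± 0.18. None of the 3 overlapped between salt and control. These calls rest on few arrays. With the 5 IR29 arrays alone limma called 0 probe sets, as it did without salt replicate 1, and it called 1 without control replicate 1 and 1 without salt replicate 2, in both cases none of these 3. Without the first FL478 salt array 1 of the 3 was called, and without control replicate 2 all 3 were, among 65.

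The largest change of any gene was at LOC4347708, which the tables used here do not describe. It had 5.99 and 4.77 in the controls and 11.36, 11.12 and 9.19 under salt, a change of 5.18 ± 1.01 (36.1-fold, adjusted p = 0.161 by limma). The controls lay near the added value and the third salt array well under the other salt arrays, and the gene was not called. LOC4350299 followed, at 4.25 and 4.29 against 8.00, 7.95 and 6.91 (3.35 ± 0.50, adjusted p = 0.09). In FL478 these genes had changes of 1.20 ± 0.90 and -0.55 ± 0.45. None of the genes named from here on was called over all probe sets, so their values are given without a claim of change, and the share of all genes that met the same condition is the background to each count.

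In the ABA pathway single genes of several steps had large positive changes. Dehydrin and LEA genes, which protect cells during drying, had a median change of 0.51 over 10 genes, against -0.00 over all genes, which was 0.18 against control replicate 1 and 0.68 against control replicate 2, and 5 of the 10 lay above both controls in every salt array (12.8% of all genes did). RAB16B had 5.31 and 5.40 in the controls and 7.24, 6.88 and 6.97 under salt, and rab25 had 6.02 and 5.90 against 7.25, 7.44 and 7.75. Neither overlapped. RAB21, a brighter gene of the same family, had 9.12 and 8.20 against 9.09, 9.53 and 9.37, so control replicate 1 reached the salt arrays, while in FL478 the same gene had a change of 1.81 ± 0.34.

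All 3 measured genes of ABA synthesis and breakdown had a change above 0. ABA8OX2, an ABA 8'-hydroxylase that breaks the hormone down, had 9.20 and 9.10 in the controls and 10.18, 10.60 and 10.63 under salt, with no overlap (1.32 ± 0.29, adjusted p = 0.221 by limma). ZEP1, of ABA synthesis, had 9.06 and 8.39 against 9.26, 8.89 and 9.81, where salt replicate 2 lay below the first control. Of 54 PP2C genes, the family that holds the phosphatases inhibited by the ABA receptors, 33 had a change above 0, and the family median was 0.03. PP2C30 had 7.30 and 6.78 in the controls and 9.62, 8.78 and 8.86 under salt (2.05 ± 0.34, adjusted p = 0.116 by limma). PP2C08 had 6.94 and 7.72 against 8.96, 8.88 and 9.22 (1.69 ± 0.30, adjusted p = 0.123). Both lay at least 2-fold above each control. The SAPK genes, which code for the SnRK2 kinases, had a median of 0.13 over 10 genes and none lay above both controls in every salt array. BZIP23, an ABA-responsive activator, had 9.63 and 9.49 against 11.04, 10.80 and 10.90 (1.35 ± 0.17, adjusted p = 0.0739). It varied little within each condition, and its call depended on the setting: it was called in 6 of 18 alternatives, with an adjusted p from 0.0428 to 0.425.

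Of the sodium and potassium transport genes, HKT1;5 and HAK22 had the largest changes. HKT1;5 had 6.13 and 5.99 in the controls and 8.18, 8.89 and 7.77 under salt, a change of 2.22 ± 0.35 (4.66-fold, adjusted p = 0.104 by limma). HAK22, a member of the potassium transporter family, had 6.72 and 6.07 against 8.61, 7.70 and 8.18 (1.77 ± 0.38, adjusted p = 0.193). By their brightest probe sets, salt and control arrays did not overlap for either gene. A dimmer probe set of HAK22, with a mean level of 5.11, had a change of -0.47. Over the 22 HAK genes the median change was 0.12, with 17 above 0, and the changes ran from -0.18 to 1.77. In 6 of the 22 every salt array lay above both controls, against 12.8% of all genes. HAK5, a high-affinity potassium transporter and the brightest of them, had 13.59 and 13.49 against 13.71, 13.62 and 13.64, a change of 0.11 ± 0.14. AKT1, the inward potassium channel of roots, lay lower, at 7.92 and 8.01 against 7.18, 7.35 and 7.35 (-0.67 ± 0.29, adjusted p = 0.648). In FL478 HKT1;5 was called, with a change of 2.49 ± 0.31 (adjusted p = 0.0475 by limma), HAK22 had 0.05, and neither difference between the lines was called (adjusted p = 0.975 and 0.848 by limma).

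**Figure D2:**
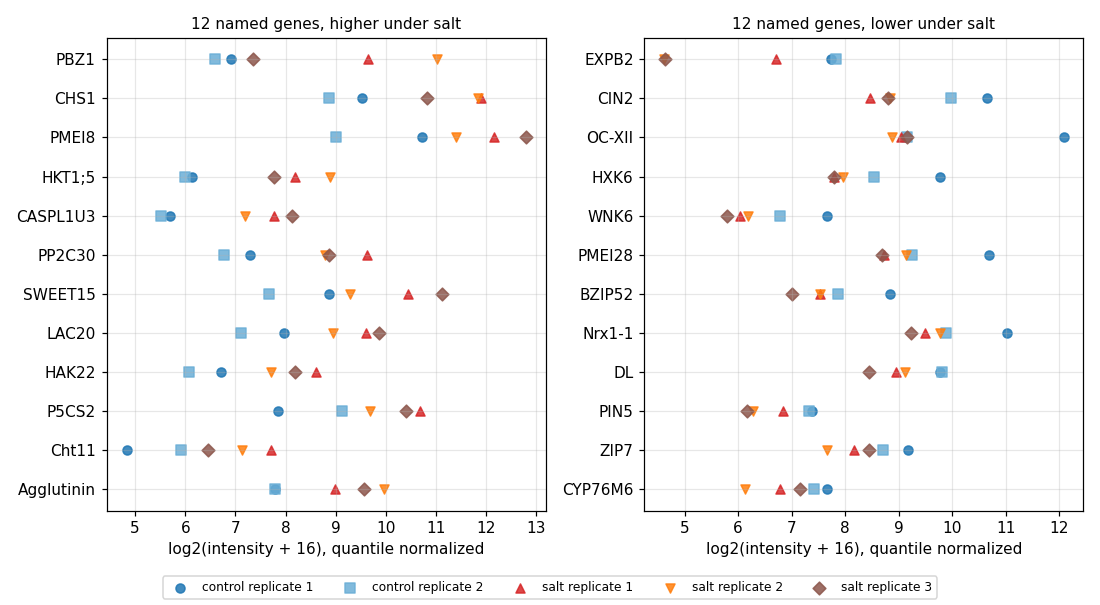
Each row is a gene and each point its level on 1 IR29 array (log2 of intensity plus 16, quantile normalized), with the 2 controls in blue and the 3 salt arrays in warm colours. Left are the 12 named genes with the largest positive changes, right the 12 with the largest negative ones, chosen among genes without overlap between conditions. For OC-XII, PMEI28 and Nrx1-1 the second control lies beside the salt arrays, and only control replicate 1 is high.

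Genes for compatible solutes were mixed. P5CS2, of proline synthesis, had 7.85 and 9.12 in the controls and 10.68, 9.69 and 10.40 under salt. The controls differed by more than a factor of 2, and the change of 1.77 ± 0.58 (adjusted p = 0.476 by limma) came to 2.41 against control replicate 1 and 1.14 against control replicate 2. P5CS1, the brighter paralogue, had 12.82 and 13.08 against 13.12, 13.12 and 13.06. ADC2, an arginine decarboxylase gene of polyamine synthesis, lay lower in every salt array, at 8.85 and 8.66 against 7.92, 7.80 and 8.11 (-0.81 ± 0.41). BADH1, of the betaine aldehyde dehydrogenase family, also lay lower, with 11.38 and 11.06 against 10.70, 10.85 and 10.67. Of 17 such genes 5 lay above both controls in every salt array and 3 below both, against 12.8% and 13.5% of all genes.

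Salt-induced marker genes known from other rice tissues did not share a direction. The lectin gene salT had 10.18 and 9.96 in the controls and 9.68, 9.51 and 9.23 under salt, so every salt array lay below both controls (-0.60 ± 0.21, adjusted p = 0.52 by limma). SAP8, of the stress-associated zinc finger family, had 13.76 and 13.71 against 14.20, 14.35 and 13.91 (0.42 ± 0.13, adjusted p = 0.446). Of the 16 genes of this list 4 lay above and 3 below both controls, against 12.8% and 13.5% of all genes. Their median change was 0.01 (0.10 and -0.05 against each control).

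Several cellulose, lignin and barrier genes lay higher in the salt arrays. The secondary wall list had a median change of 0.41 over 10 genes, 5 of them above both controls in every salt array (12.8% of all genes were). CESA9, a cellulose synthase of secondary walls, had 7.13 and 7.45 in the controls and 8.78, 8.37 and 9.01 under salt (1.43 ± 0.24, adjusted p = 0.116 by limma), and CESA4, its partner in the same complex, had 10.46 and 10.20 against 11.78, 11.20 and 11.60. Salt replicate 2 was the lowest of the salt arrays for both, and still lay above each control. BC1L2, of the COBRA-like family, lay lower instead, at 10.22 and 10.14 against 9.55, 9.75 and 9.90 (-0.45 ± 0.14).

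CASP-like genes, relatives of the proteins that mark out the Casparian strip, had 10 of 22 members above both controls in every salt array, against 12.8% of all genes, and an unadjusted p under 0.05 on the higher side was found for 7 of the 22, against 5.23% of all genes. Their median change was 0.16. CASPL1U3 had 5.70 and 5.51 in the controls and 7.76, 7.19 and 8.12 under salt (2.08 ± 0.44, adjusted p = 0.189 by limma). CASPL1B1 had 7.99 and 7.16 against 9.10, 8.67 and 9.33, and CASPL2A1, among the brightest, had 12.47 and 11.79 against 13.00, 12.66 and 12.96. In these genes control replicate 2 was the lowest array and the salt arrays lay above both controls. Not all members shared this: CASPL5C1 lay lower, at 9.87 and 9.51 against 9.35, 9.45 and 9.22. In FL478, 13 of the 22 had a change above 0, and no difference between the lines was called. In RNA from whole tissue, more cells of a type and more RNA per cell cannot be told apart.

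Phenylpropanoid and lignin genes had 20 of 29 changes above 0 and a median of 0.23, which was 0.15 against control replicate 1 and 0.41 against control replicate 2. PAL06, of the entry step, had 5.86 and 5.98 in the controls and 7.21, 7.15 and 7.73 under salt. CAD2, a cinnamyl alcohol dehydrogenase, had 11.44 and 10.74 against 12.13, 12.07 and 12.28 (1.07 ± 0.20, adjusted p = 0.144 by limma). The laccase gene LAC20, of the family that polymerises lignin, had 7.97 and 7.11 against 9.60, 8.94 and 9.86 (1.93 ± 0.65, adjusted p = 0.498), and the 9 laccase genes had a median of 0.09, which was -0.22 against control replicate 1 and 0.41 against control replicate 2. The 2 flavonoid genes measured stood higher still. CHS1, chalcone synthase, had 9.53 and 8.87 against 11.90, 11.84 and 10.82 (2.32 ± 0.32, adjusted p = 0.0863 by limma, and called in 3 of 18 alternatives). This was its brightest probe set, and the dimmer probe sets of CHS1 had changes of 1.16, 0.68, 0.2 and -0.13. CHI, chalcone isomerase, had 10.28 and 10.59 against 11.98, 11.62 and 11.34.

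Genes of wall loosening lay on both sides. EXPB2, a beta-expansin gene, was 1 of the 5 genes at least 2-fold below both controls in every salt array, with 7.74 and 7.82 in the controls and 6.70, 4.62 and 4.63 under salt (-2.46 ± 0.62, adjusted p = 0.305 by limma). EXPB3, a brighter member of the same family, had 13.37 and 13.13 against 13.96, 13.42 and 13.83. Over 71 primary wall genes the median change was 0.04 (-0.01 and 0.06 against each control). Of these 8 lay above and 7 below both controls, near the 12.8% and 13.5% of all genes.

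Beta-glucosidase genes, of the BGLU family whose enzymes release glucose from hormone, defence and wall conjugates, had 12 of 27 members above both controls in every salt array and 4 below. Over all genes these shares were 12.8% and 13.5%. The median change of the 27 was 0.30, and 0.36 and 0.31 against each control. BGLU27 had 8.19 and 8.52 in the controls and 10.17, 10.07 and 9.76 under salt (1.65 ± 0.34, adjusted p = 0.176 by limma). BGLU28 had 8.84 and 8.54 against 9.36, 9.30 and 9.41. Both separated cleanly, whereas the brightest member, BGLU1 at LOC4333841, stayed between 14.06 and 14.09 on all 5 arrays. In FL478 BGLU27 had a change of -0.16, and the difference of 1.80 was not called (adjusted p = 0.746 by limma).

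Defence genes had a change above 0 in 16 of 18 cases, with a median of 0.39. Of the 18, 7 lay above both controls in every salt array, against 12.8% of all genes. PBZ1, a pathogenesis-related gene of the PR10 class, had 6.91 and 6.59 in the controls and 9.64, 11.02 and 7.36 under salt, a change of 2.59 ± 0.75 (6.01-fold, adjusted p = 0.381 by limma). The salt arrays spread widely and the third lay only just above the controls. The chitinase gene Cht11 had 4.83 and 5.92 against 7.70, 7.14 and 6.46 (1.72 ± 0.46, adjusted p = 0.332). Salt replicate 3 was the lowest salt array here too, and the mean level of the list was 7.90, 7.72 and 7.19 in the salt arrays against 6.94 and 7.20 in the controls, so on this mean the third salt array did not exceed the second control. Of the 18 genes 6 had a mean level under 6.

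All 13 JAZ genes, the repressors of jasmonate signalling, had a change above 0 in IR29, with a median of 0.51. Against control replicate 1 alone, 9 of 13 lay higher and the median was 0.14, and against control replicate 2 all 13 did, with a median of 0.73. JAZ12 had 6.21 and 6.65 in the controls and 8.26, 8.20 and 7.67 under salt (1.61 ± 0.76, adjusted p = 0.692 by limma). JAZ8 had 9.30 and 8.39 against 11.03, 9.13 and 11.09, so salt replicate 2 lay below the first control. JAZ11 had 7.43 and 7.48 against 8.52, 8.20 and 8.20, and JAZ7, the brightest after JAZ1, had 12.19 and 11.50 against 13.41, 12.21 and 13.11. Every salt array lay above both controls in 5 of the 13, against 12.8% of all genes. In FL478 12 of the 13 had a change below 0 with a median of -0.72, and JAZ12 had -1.65 there. The FL478 controls ranged widely: JAZ12 had 11.29, 8.16 and 8.80 there, against 8.84, 6.80 and 7.66 under salt. No JAZ gene was called for the difference between the lines, where JAZ12 had 3.26 (adjusted p = 0.861 by limma). Among the enzymes of jasmonate synthesis AOC3 had 11.30 and 10.97 against 12.46, 11.47 and 12.19, and 11 of 21 had a change above 0, being 15 against control replicate 1 and 8 against control replicate 2.

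Proteasome subunit genes lay lower together and by little. All 19 had a change below 0, from -0.35 to -0.05, with a median of -0.22, and 13 of the 19 lay below both controls in every salt array, against 13.5% of all genes. At an unadjusted p under 0.05, 6 of 19 were lower, against 3.84% of all genes, and none was called by limma (smallest adjusted p = 0.517). PAD1, an alpha subunit of the catalytic core, had 12.65 and 12.67 in the controls and 12.24, 12.39 and 12.31 under salt (-0.35 ± 0.12). PAA1, another alpha subunit, had 13.11 and 13.19 against 12.80, 12.87 and 12.91, and the beta subunit gene PBB1 had 12.67 and 12.89 against 12.50, 12.53 and 12.52. RPN7, of the regulatory lid, had 13.05 and 13.32 against 12.92, 12.98 and 12.88 (-0.26 ± 0.11). These genes are bright and tight, with mean levels of 11.47 to 13.40, so differences this small separate the arrays. The median was -0.13 against control replicate 1, where 16 of 19 lay lower, and -0.23 against control replicate 2, where all 19 did. In FL478 16 of the 19 had a change below 0, with a median of -0.09. Over 11 protein disulfide isomerase-like genes, which fold proteins in the endoplasmic reticulum, 10 had a change below 0 and the median was -0.11.

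**Figure D3:**
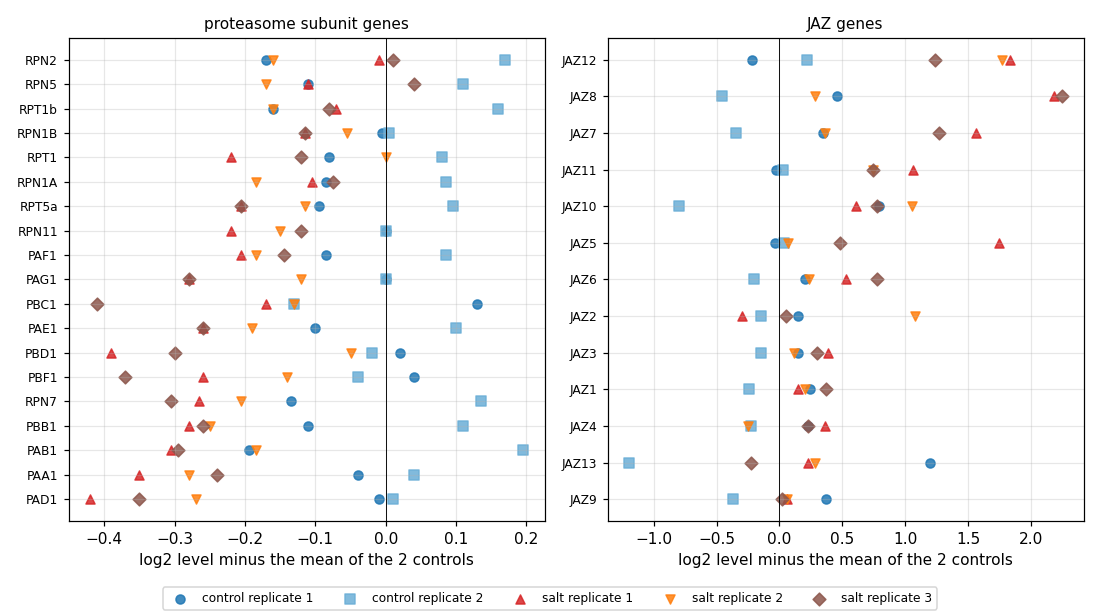
Each row is a gene and each point 1 IR29 array, on the x axis as its log2 level minus the mean of the 2 controls. Left, the salt arrays of most of the 19 proteasome subunit genes lie left of the controls. Right, the 13 JAZ genes span a wider range, and control replicate 1 often lies among the salt arrays.

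Most cell division genes had a small negative change, larger against the second control. Of 78 genes of cyclins, cyclin-dependent kinases and replication, 60 had a change below 0. In 26 every salt array lay below both controls, against 13.5% of all genes. At an unadjusted p under 0.05 by limma 16 were lower, against 3.84% of all genes. Their median was -0.16, being -0.06 against control replicate 1 and -0.26 against control replicate 2. The mean level of the list overlapped between conditions, with 10.50 and 10.69 in the controls and 10.38, 10.56 and 10.41 under salt, where salt replicate 2 lay above control replicate 1. CYCB2-2, a B-type cyclin of mitosis, had 12.53 and 12.48 in the controls and 11.71, 12.26 and 11.72 under salt (-0.61 ± 0.20, adjusted p = 0.471 by limma). CDKB2-1, the kinase that partners with such cyclins, had 12.09 and 12.10 against 11.45, 11.88 and 11.63 (-0.44 ± 0.16). In both, salt replicate 2 lay nearest to the controls. Replication genes were alike, with 7 of 8 MCM helicase genes and 4 of 5 ORC genes below 0, and ORC2 had 10.67 and 10.51 against 10.21, 10.34 and 10.17. Of 34 kinesin genes 23 had a change below 0, and KIN5C, a spindle motor, had 11.62 and 11.79 against 11.20, 11.35 and 11.15 (-0.47 ± 0.12). CMT3, a DNA methyltransferase, lay lower as well, at 11.43 and 11.62 against 10.85, 11.19 and 10.86 (-0.56 ± 0.14, adjusted p = 0.317).

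The PCF and PIN genes had changes at or below 0, while the meristem and auxin lists were mixed. All 7 PCF genes, of the TCP family of growth regulators, had a change at or below 0, from -0.39 to -0.00. Of the 7, 3 lay below both controls, against 13.5% of all genes. All 5 PIN auxin efflux genes had a change below 0 with a median of -0.54, but only 1 lay below both controls: PIN5 had 7.38 and 7.32 against 6.84, 6.28 and 6.17. For PIN5a the value rests on 1 array, with 9.18 and 7.22 in the controls and 7.14, 6.61 and 7.59 under salt. The YABBY gene DL, a regulator of midrib formation in rice leaves, lay lower without overlap, at 9.77 and 9.80 against 8.95, 9.11 and 8.44 (-0.95 ± 0.23, adjusted p = 0.272 by limma). SHR1, of a family that patterns the root and bundle sheath, had 9.32 and 9.38 against 8.65, 8.93 and 8.95 (-0.51 ± 0.15). The median of all 74 meristem genes was 0.01, with 39 changes above 0 and 35 below. Of the 74, 9 lay above and 7 below both controls, against 12.8% and 13.5% of all genes. Its members Hox22 and HOS66 had positive changes of 1.41 and 1.11. Over 60 auxin genes 31 had a change above 0 and 29 below.

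Among sugar, water and nutrient genes single members stood apart. CIN2, a cell wall invertase, had 10.65 and 9.98 in the controls and 8.46, 8.83 and 8.80 under salt, at least 2-fold below each control in every salt array (-1.62 ± 0.29, adjusted p = 0.125 by limma). SWEET15, a sugar efflux gene, had 8.86 and 7.66 against 10.45, 9.29 and 11.11 (2.02 ± 0.62, adjusted p = 0.423), while the 12 SWEET genes had a median of -0.18, which was -0.39 against control replicate 1 and 0.16 against control replicate 2. GLN1-2, a cytosolic glutamine synthetase, had 12.95 and 13.38 against 12.56, 12.32 and 12.44 (-0.72 ± 0.17). TIP4-1, a tonoplast aquaporin, had 10.31 and 11.16 against 12.62, 12.30 and 11.79 (1.51 ± 0.60), although 19 of the 25 aquaporin genes had a change below 0. Their median was -0.12 against control replicate 1, with 7 genes higher, and -0.02 against control replicate 2, with 11 higher. Of the 25, 3 lay above and 2 below both controls in every salt array, against 12.8% and 13.5% of all genes. ZIP7, of a zinc transporter family, had 9.17 and 8.71 against 8.17, 7.65 and 8.45, and NAS3, of nicotianamine synthesis, had 12.83 and 13.09 against 12.51, 12.44 and 12.48. Succinate dehydrogenase subunit genes of the mitochondria had changes below 0 in all 7 cases, from -0.39 to -0.05. SDH3-1 had 12.01 and 11.98 against 11.58, 11.76 and 11.62. These 7 genes are not a gene list of their own, and in FL478 4 of them had a change below 0 and 3 above. The list of central carbon metabolism had 23 of 31 changes below 0 and a median of -0.12.

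**Figure D4:**
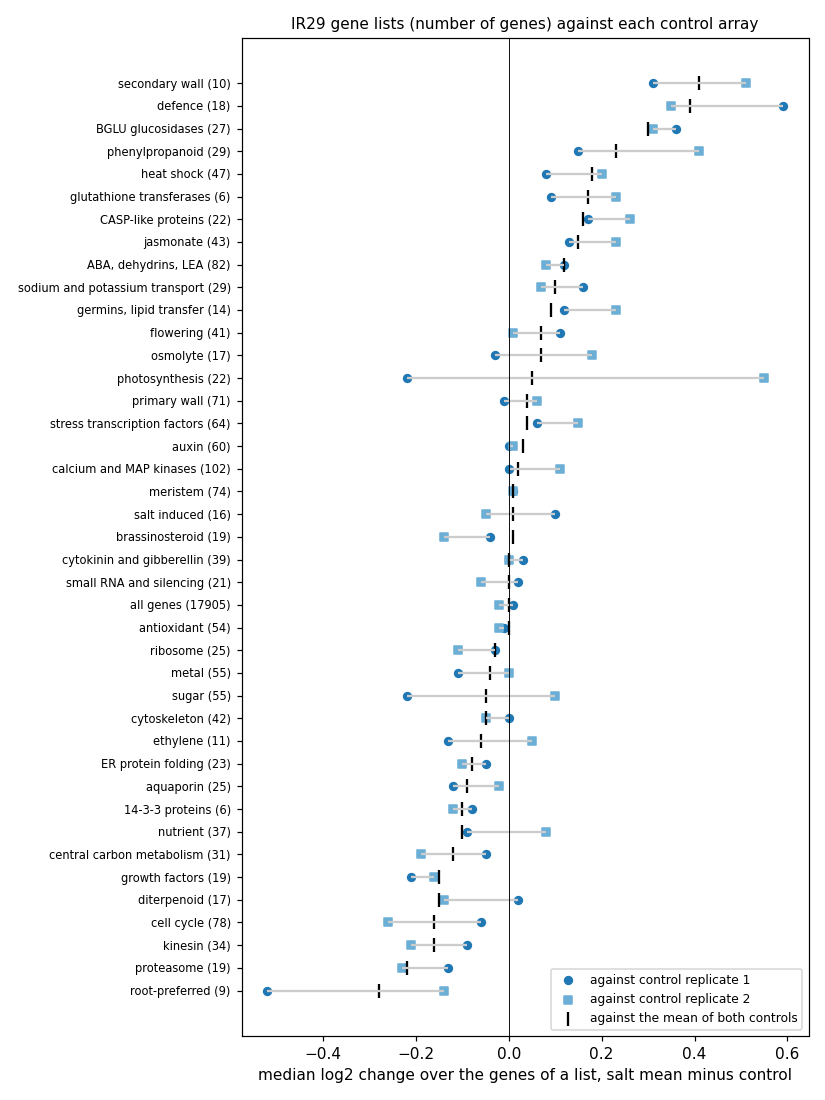
Each row is a gene list with its number of genes, and the x axis is the median log2 change of its genes, salt mean minus control, against control replicate 1 (dark circle), control replicate 2 (light square) and the mean of both (bar). The photosynthesis list has medians of -0.22 and 0.55, on opposite sides of 0, whereas the secondary wall, defence and BGLU lists lie above 0 and the proteasome and cell cycle lists below 0 against either control.

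Leaf genes differed between arrays of the same condition more than between conditions. The mean level of 22 photosynthesis and chlorophyll genes was 11.33 and 10.65 in the controls and 11.24, 10.62 and 11.31 under salt. Control replicate 2 and salt replicate 2 were low, and the other 3 arrays were high. CHLP, of chlorophyll synthesis, had 13.13 and 11.36 in the controls and 12.51, 11.28 and 13.04 under salt, and LHCP, of the light-harvesting antenna, had 14.66 and 13.34 against 14.61, 12.92 and 14.83. The same pair of arrays lay below the other 3 in 12 of the 22 genes (54.5%) and in 5 of the 9 root-preferred genes (55.6%), against 11.1% of all genes, and in 0 of the 78 cell division genes. The list median was -0.22 against control replicate 1 and 0.55 against control replicate 2. Of the 22 genes 2 lay above both controls in every salt array, near the share of all genes (12.8%). Of these, rcaA1, of Rubisco activase, had 11.10 and 10.21 against 11.90, 11.30 and 11.96 (1.06 ± 0.30, adjusted p = 0.371 by limma). PETE, plastocyanin, had 14.15 and 13.94 against 14.59, 14.48 and 14.53. In the salt arrays the secondary wall mean was 9.70, 9.35 and 9.66 and the phenylpropanoid mean 9.15, 8.83 and 9.21, lowest in salt replicate 2 like the leaf genes, and the cell cycle mean was 10.38, 10.56 and 10.41, highest there. The part of the leaf share of the tissue in these values was not tested.

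**Figure D5:**
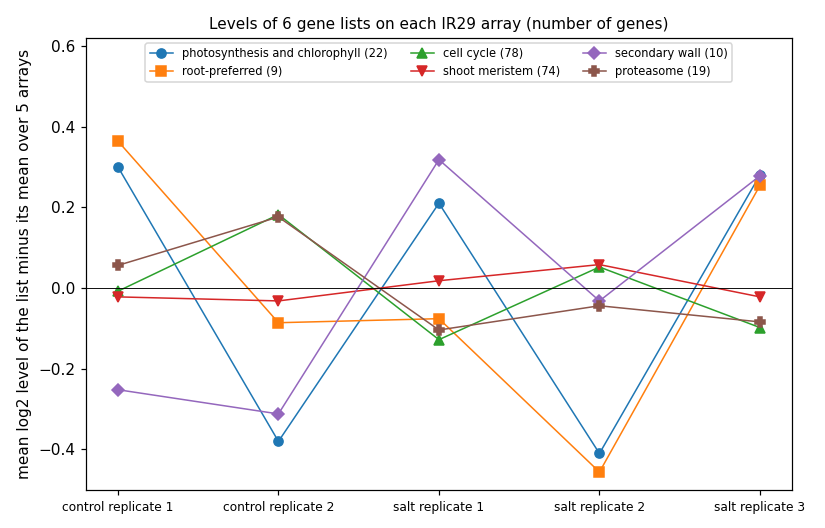
The y axis is the mean log2 level of a list on an array minus its mean over the 5 IR29 arrays, and the x axis the arrays, joined by lines only to guide the eye. Photosynthesis genes are low in control replicate 2 and salt replicate 2, secondary wall genes are higher in all 3 salt arrays than in both controls, and meristem genes stay near 0.

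Control replicate 1 alone set several of the larger negative values. It lay at least 2-fold above or below all 4 other IR29 arrays in 103 of 13778 bright genes, against 59 for control replicate 2 and 2, 16 and 14 for the salt arrays. OC-XII, a cystatin gene, had 12.08 and 9.15 in the controls and 9.05, 8.87 and 9.15 under salt, so its change of -1.59 ± 0.93 came to -3.06 against the first control and -0.13 against the second. The antioxidant gene APX5, an ascorbate peroxidase, had 9.27 and 5.28 against 4.32, 5.18 and 5.47. PMEI28, a pectin methylesterase inhibitor gene, had 10.69 and 9.24 against 8.72, 9.13 and 8.69, and HXK6, a hexokinase gene, had 9.78 and 8.54 against 7.79, 7.95 and 7.79. Of these, HXK6 kept a gap to the second control, with -1.93 and -0.69 against each. Genes that were low in control replicate 1 give positive values in the same way: PP2C27 had 5.07 and 7.51 against 7.98, 7.44 and 7.56, and the heat shock factor gene HSFB1 had 6.20 and 7.34 against 7.86, 7.80 and 8.35. Control replicate 2 in turn lay at least 2-fold below all other IR29 arrays for PMEI8 and PIP1-3. PMEI8, a further pectin methylesterase inhibitor gene, had 10.73 and 9.00 against 12.15, 11.39 and 12.79 (2.25 ± 0.66, adjusted p = 0.397 by limma). PIP1-3, a plasma membrane aquaporin, had 9.10 and 8.07 against 10.03, 9.41 and 10.79. In both genes control replicate 1 also lay below every salt array, so their positive changes do not rest on control replicate 2 alone. Where control replicate 1 stood alone, the FL478 mean lay nearer to it than to the mean of the other IR29 arrays in 35 of 103 genes (34.0%). Where control replicate 2 stood alone, the FL478 mean lay nearer to that control in 32 of 59 (54.2%).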

How the data were processed

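For every probe set the authors deposited 1 linear signal intensity on each array. The submitters' processing notes name GCOS 1.2 for the authors' processing, and the sources used here state no further step. Each array's intensity had a trimmed mean of 500.1, so a scaling preceded deposit. After 123 control probe sets were set aside from 57381, log2(intensity + 16) of the remaining 57258 was quantile normalized, since array medians differed by up to 0.47. Limma 3.58.1 (R 4.3.3) fitted 4 group means over all 11 arrays with a variance trend, which was tested on simulated data. There it called 46.3% of simulated log2 changes of 1, 88.1% of those of 2 and 97% of those of 3, with 6 false calls. Many changes of about 2-fold would thus not be called. P-values are two-sided and were adjusted over all probe sets by Benjamini-Hochberg, a call needs an adjusted p under 0.05, and ± gives the standard error from this fit. Python 3.11.15 with pandas 2.3.3 made the tables and matplotlib 3.10.9 the plots. The number of arrays limits the precision.

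In the array's annotation 22436 probe sets had 1 gene, 95 several and 34727 none. The 17905 genes are each shown by their brightest probe set, and 2458 have a name other than a locus number in the RefSeq table of assembly ASM3414082v1, used for names only. The members and the 42 gene lists were chosen with earlier results of these data known, and lists are described by counts and medians without a test.

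The rule for named genes took the called probe sets, then genes whose salt and control arrays of IR29 did not overlap and whose brighter group averaged at least 7: the 12 named genes and 5 locus-number genes with the largest change in each direction, and up to 4 members of each list of at least 5 genes (where none met this, the member with the smallest unadjusted p). Not all of these are printed. Genes outside the rule, among them OSH1, RAB21, ABA8OX2, ZEP1, HAK5, P5CS1, BADH1, BC1L2, CHI, EXPB3, BGLU1, JAZ8, CASPL5C1, CDKB2-1, ORC2, NAS3, PIN5a, the leaf genes other than rcaA1 and PETE, APX5 and PP2C27, were chosen after their values were seen. Alternatives were the 5 IR29 arrays only, a replicate block, no quantile normalization, pseudocounts of 1 and 64, a filter on dim probe sets, array weights, the mean of a gene's probe sets, and each array left out.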

Additional observations from a re-analysis of the deposited data

Results flagged for a closer look

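Every salt array lay on one side of every control in IR29 and on the opposite side in FL478 for 139 of all 17905 genes, and for 5 of the 167 genes that the naming rule took, which are given here. The rule took mostly genes without overlap in IR29, a condition the 139 also meet, so these counts cannot be compared. Over all genes, 2292 on the higher side and 2421 on the lower side had no overlap in IR29. The difference between the responses (IR29 minus FL478) was tested by limma and not called for any of the 5 genes, nor for any of the 57258 probe sets, where 3059 had an unadjusted p under 0.05. IAA2, of the auxin response repressors, had 0.89 ± 0.19 in IR29 and -0.57 ± 0.17 in FL478, a difference of 1.46 ± 0.26 (adjusted p = 0.618 by limma). IAA19, of the same family, ran the other way, with -0.44 ± 0.18 and 0.42 ± 0.16 and a difference of -0.86 ± 0.24 (adjusted p = 0.844). RR4, a cytokinin response regulator, had 0.51 ± 0.24 and -0.45 ± 0.21, a difference of 0.95 ± 0.32 (adjusted p = 0.878), and its salt replicate 2, at 9.03, lay just above the controls at 8.96 and 9.00. CYP76M6, of diterpenoid synthesis, differed by -1.53 ± 0.56 and GLN1-3, a glutamine synthetase, by -1.45 ± 0.67 (adjusted p = 0.916 for both).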

How the results depend on the processing

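The count of called probe sets was 3 with all arrays. It was 0 with the 5 IR29 arrays only, 14 with a replicate block (all higher), 6 with a pseudocount of 64, 8 with dim probe sets left out and 5 with array weights. Leaving out 1 array in turn gave 0 to 65, with 65 (50 of them lower) without control replicate 2, 1 without control replicate 1 and 0 without salt replicate 1. When 1 IR29 array was left out, the 61 higher genes became 65 to 205 and the 5 lower genes 6 to 109, by construction, since fewer arrays must separate; the lower count was 109 without control replicate 2. The 5 became 2 with a pseudocount of 64. The cause of these shifts was not tested. None of the 167 genes under the naming rule changed sign in any alternative. This follows largely from the rule, which took mostly genes without overlap between conditions, so it does not measure how stable they are. Outside it, CHLP, LHCP, JAZ1 and OSH1 lie on opposite sides of 0 against the 2 controls. BZIP23 was called in 6 of 18 alternatives and CHS1 in 3 of 18: with the replicate block, with dim probe sets left out, and without salt replicate 3 (lowest adjusted p = 0.0166 by limma). HKT1;5 was called with the replicate block (2.36, adjusted p = 0.0469) and HXK6 without control replicate 2 (-1.93, adjusted p = 0.0247). The median change of all genes was -0.024 to 0.014 when 1 array was left out. Same-numbered arrays of the 2 conditions correlated at -0.051 and 0.058 in their deviations from the group means. The 2 controls deviate from their mean by equal and opposite amounts, so each salt array correlates with them at opposite signs. These values cannot decide whether the numbers pair the samples.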

Other observations

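Several named genes outside the groups above also separated in IR29 without a call. LTP2-B, a lipid transfer protein gene, had 13.61 and 12.87 in the controls and 14.66, 14.69 and 14.45 under salt (1.36 ± 0.29, adjusted p = 0.193 by limma). A second bright probe set of LTP2-B had a change of only 0.29, and a dimmer one 1.06. NRAMP4, of the NRAMP metal transporter family, had 8.43 and 8.45 against 9.27, 9.45 and 9.22 (0.87 ± 0.22, adjusted p = 0.305). Its dimmer probe sets had changes of 0.87, 0.66, -0.04 and 0.08. EIL1A, of the ethylene signalling factors, had 12.55 and 12.60 against 13.20, 13.10 and 13.08. D14, the strigolactone receptor gene, had 10.58 and 10.26 against 11.35, 10.94 and 10.98. By their brightest probe sets, the salt arrays of all 4 genes lay above both controls. In FL478 the changes were 0.40, 0.26, 0.08 and -0.03.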
